A study of Triticum aestivum with 8 samples.

Results

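Homoeologous group 4 of bread wheat (Triticum aestivum) comprises chromosomes 4A, 4B and 4D, the copies of chromosome 4 in the A, B and D subgenomes. Its accessible chromatin regions were taken as every ATAC-seq peak whose chromosome was 4A, 4B or 4D, which gave 61205 of the 496486 peaks in 4 lists. ATAC-seq uses a transposase that cuts open DNA and tags it for sequencing, so a peak marks a place where cuts pile up. The lists came from leaves, roots and shoot apices of seedlings aged 2 weeks, and from axillary buds of 1.0 to 2.0 cm, taken from 6-week-old plants after 30 days at 4 °C. All plants were of the cultivar AiKang58 and are given the same growth regime, a day of 16 h at 22 °C and a night of 8 h at 19 °C. Age and cold therefore cannot be told apart from the tissue wherever buds differ from the seedling tissues. Each list stands for the 2 libraries of its tissue and holds positions with no value per library, so replicate error cannot be given, and the depth is unknown. In whole tissues, a peak missing from a list cannot be told apart between fewer cells of a type, less open chromatin per cell and shallower sequencing.

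Homoeologous chromosomes descend from the same ancestral chromosome and largely keep its gene order. Chromosome 4A is the known exception in wheat. A pericentric inversion placed what corresponds to the long arms of 4B and 4D on its short arm and what corresponds to their short arms on its long arm. The distal long arm of 4A carries segments received from 5AL and 7BS, and a segment of the ancestral 4AL now sits at the end of 5AL. The short arms of 4B and 4D carry Rht-B1 and Rht-D1, the genes behind the dwarf habit of modern wheats. None of this was read from sequence here, because the build behind the peaks is not given in the sources used and no gene could be placed on it. All positions are in the coordinates of the lists, and the length of a chromosome is the end of its last peak.

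The leaf list held 15624 peaks on group 4, the root list 14308, the shoot apex list 16190 and the bud list 15083, which is 12.7%, 12.0%, 12.3% and 12.4% of each list. 4A carried 22395 of them, 4B 20199 and 4D 18611. The shortest chromosome was the densest. 4D, with a length of 509.9 Mb, held 9.23 peaks per Mb in leaf, 8.47 in root, 9.80 in shoot apex and 8.999 in bud. 4B, with 673.6 Mb, held 7.84, 6.72, 7.99 and 7.43 peaks per Mb in the same order of tissues. 4A, with 744.5 Mb, held 7.57, 7.33, 7.80 and 7.37. 4D was thus denser than 4A by 15.6% in root to 25.7% in shoot apex, and denser than 4B by 17.7% in leaf to 26.0% in root. A denser D chromosome is not particular to group 4: in the other 6 groups, too, D was denser than A and B in each list. The lead of D over B in group 4 was the lowest of the 7 groups in leaf, root and shoot apex. In leaf its log2 ratio was 0.235, against 0.317 to 0.872 in the others. 4A and 4B did not keep an order: 4A was 9.04% denser than 4B in root, and differed from 4B by −3.38% in leaf, with shoot apex and bud between. In leaf, root and bud, 4A ranked 6 of the 7 A chromosomes by density, and in shoot apex 7. 4D had the lowest density of the 7 D chromosomes in each of the 4 lists. Counted per protein-coding gene of the IWGSC CS RefSeq v2.1 gene table, which lists 4569 genes on 4A, 3923 on 4B and 3771 on 4D, the lead of 4D was gone: 4A had 1.19 to 1.27 peaks per gene, 4B 1.15 to 1.37 and 4D 1.15 to 1.33.

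Along 4B and 4D the peaks followed a curve with its highest values at both tips and a broad low middle. In the first 5% of 4D there were 24.0 peaks per Mb in leaf, 21.1 in root, 24.99 in shoot apex and 28.9 in bud, and in its last 5% there were 28.8, 27.6, 34.4 and 37.4. The tips of 4B were lower, with 18.8, 14.2, 18.6 and 21.7 peaks per Mb in the first 5% (same order of tissues) and 20.4, 22.4, 23.7 and 27.5 in the last 5%. At all of these 4 tips the bud list was the densest. The 50 Mb window with fewest merged regions, used as a mark of the emptiest stretch, lay at 324 to 374 Mb on 4A with 165 regions, at 194 to 244 Mb on 4B with 162 and at 236 to 286 Mb on 4D with 155. Its centre stood at 46.9%, 32.5% and 51.2% of the length of the chromosome.

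4A had another shape on its right side. From the left tip, with 13.9 peaks per Mb in leaf, 12.8 in root, 16.9 in shoot apex and 19.1 in bud, density fell towards the middle as on the homoeologues. On the right it rose within a short stretch. In the 2% of length from 70% to 72% of 4A there were 5.04 leaf peaks per Mb, and from 78% to 80% there were 21.2. From there to the right tip it ran as an uneven plateau. In the last 5% of 4A there were 12.8 peaks per Mb in leaf, 16.5 in root, 12.4 in shoot apex and 16.2 in bud, while between 80% and 85% of the length there were already 16.3, 17.4, 17.6 and 17.5. The ratio of merged regions in the outermost 5% to those in the part 15% to 20% from the tip was 0.856 at the right end of 4A. It was 2.81 at the left end of 4A, 3.72 and 3.40 at the left and right ends of 4B, and 2.97 and 3.84 at those of 4D. Over the 36 ends of the other 18 chromosomes the ratio ran from 1.10 to 4.68, with a median of 2.83, so the right end of 4A was the lowest of the 42 ends and the sole end below 1.

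**Figure D1:**
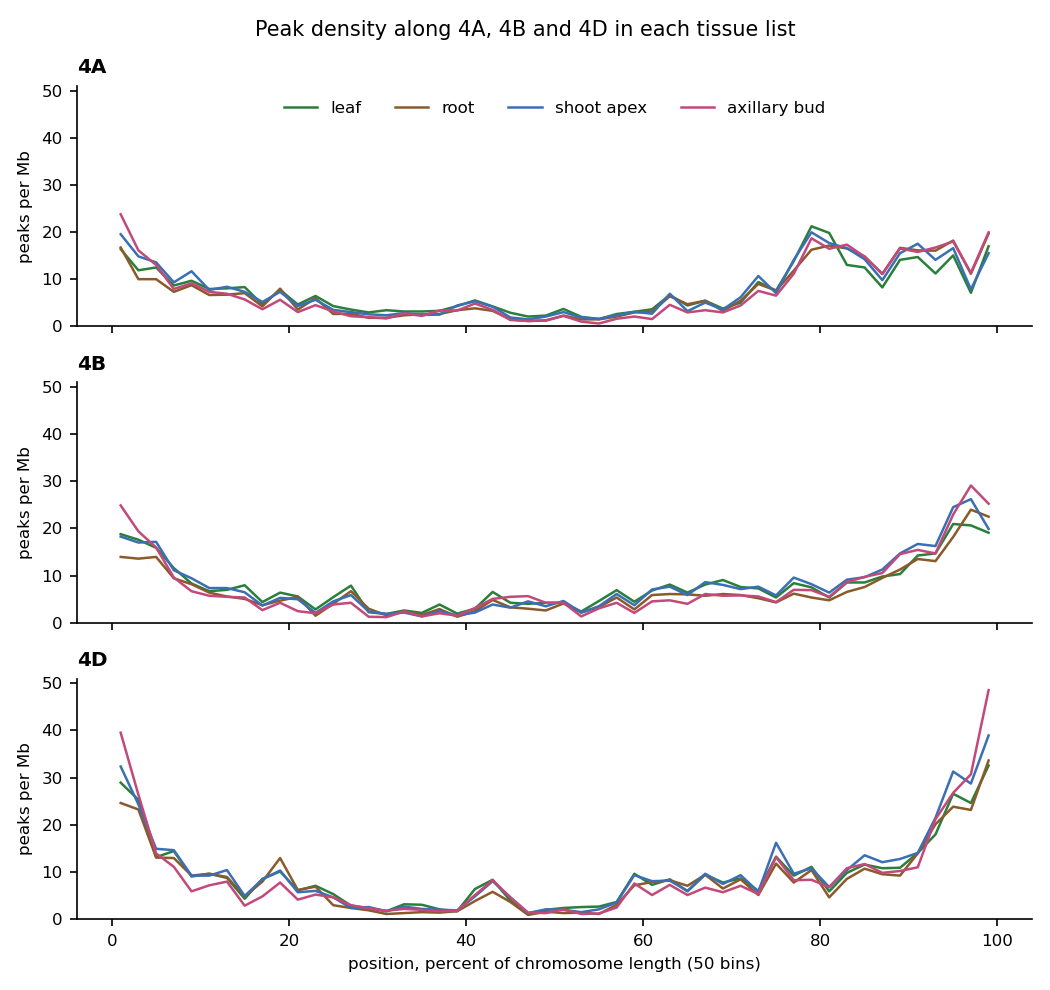
Peaks per Mb (vertical axis) in 50 bins along 4A, 4B and 4D (horizontal axis, percent of chromosome length), with 1 line for each tissue list. 4B and 4D rise to both tips in all 4 lists, whereas 4A jumps near 78% of its length and stays on a plateau to its right tip.

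The shape of 4A bears on the question in which orientation it resembles its homoeologues. Density profiles in 50 bins were compared by Pearson's r over bins, given as a description, since neighbouring bins are not independent and all bins share a library. Read forward, 4A with 4B gave r = 0.62 in leaf, 0.70 in root, 0.71 in shoot apex and 0.79 in bud, and 4A with 4D gave 0.65, 0.74, 0.68 and 0.76. In each list these were the lowest A with B and A with D values of the 7 groups, the others running from 0.74 to 0.95. 4B with 4D gave 0.89 to 0.91, within or above the range of the other groups. Reversing the whole of 4A did not raise the likeness: r fell to 0.47 to 0.56 against 4B and 0.50 to 0.60 against 4D.

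The order of the readings turned once the right end of 4A was taken away, but such a cut turned it on other chromosomes too. With the last 20% of 4A cut off and the rest stretched to full length, the reversed reading gave r = 0.85 in leaf, 0.81 in root, 0.88 in shoot apex and 0.92 in bud against 4B, and the forward reading 0.75, 0.75, 0.74 and 0.78. Against 4D the reversed reading gave 0.87, 0.86, 0.89 and 0.94, and the forward reading 0.79, 0.79, 0.78 and 0.79. Reversed was above forward in all 8 of these comparisons, by 0.07 to 0.15. With the last 10% cut off it was above in none, and in leaf against 4D both readings were at 0.60. The same cuts were made on the A chromosomes of the other 6 groups, against their own B and D homoeologues. There the reversed reading was above the forward reading in 1 of 48 comparisons uncut, in 15 after 10% and in 26 after 20%, and on 6A in all 8 after 20%. A higher reversed r after the cut is therefore not particular to 4A, and the direction depended on where 4A was cut. After the 20% cut the reversed r of 4A was 0.81 to 0.94. On the other A chromosomes it was −0.15 to 0.86, and 2A against 2D, at 0.82 to 0.86, overlapped 4A. With the cut placed at 81.6% of the length, where the matching described next ended, reversed was higher in 7 of 8 comparisons, by 0.00 to 0.08, and lower by 0.04 in root against 4B.

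**Figure D2:**
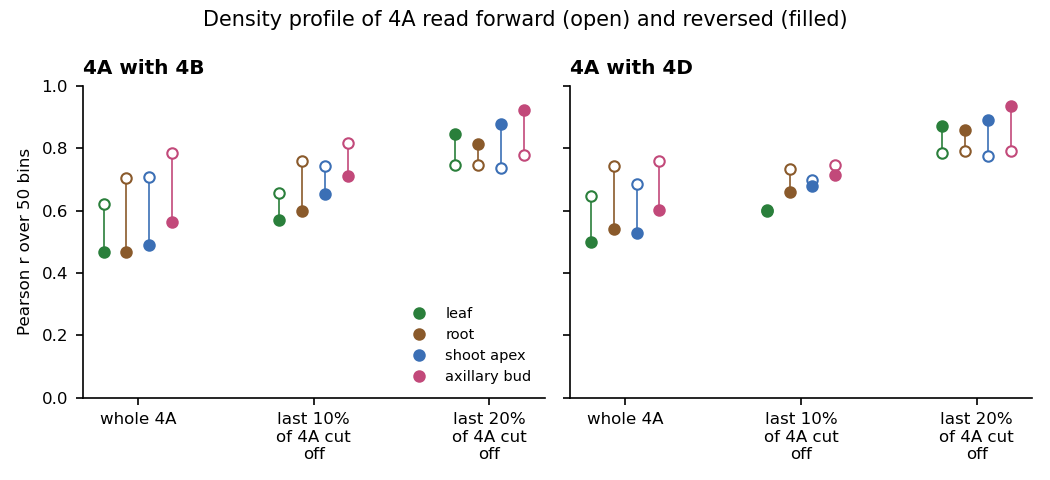
Pearson's r (vertical axis) between the 50-bin density profile of 4A and that of 4B (left) or 4D (right), with 4A read forward (open circles) and reversed (filled circles), for the whole of 4A and after 10% or 20% was cut from its right end. With 20% cut, the reversed reading stands above the forward reading in all 4 lists, as it did in 26 of 48 such comparisons in the other groups.

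Density over wide bins holds little of the order of single regions, so the order itself was compared. Peaks that shared at least 1 bp were joined across lists, which gave 221805 merged regions, of which 9976 lay on 4A, 8930 on 4B and 8040 on 4D. Each region was described by how many bases each tissue covered in it, after the mean over its neighbourhood was removed, and windows of 800 consecutive regions were aligned in both directions to the other 20 chromosomes. This matching was added after the data had been seen. Its score was chosen among several, some of them already looked at on 4A, by how many windows of 2A, 3D and 5A it placed on their homoeologues. On the 18 chromosomes outside group 4, the best match was a homoeologue read forward in 161 of 253 windows and a homoeologue read reversed in 2, with the rest on other groups. Without 2A, 3D and 5A these counts were 126 and 2 of 207. A best match on a wrong group is therefore common, and a single window carries little weight, but a reversed match to a homoeologue was rare.

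On 4A such matches were common. Of its 47 windows, which overlapped each other, 25 had their best match on 4B or 4D reversed and 1 on 4D forward. The matched places ran down 4D and 4B as the windows ran up 4A. The first 800 regions of 4A, reaching to 29.1 Mb, matched 4D from 470.8 back to 439.1 Mb, at a score of 218 against at most 165 on any chromosome of another group. The window aligned from 93.7 to 173.6 Mb matched 4D from 373.9 to 305.1 Mb. That from 536.8 to 582.8 Mb matched 4B from 88.8 to 29.9 Mb at the highest score on 4A, 249. The last in this series, from 590.2 to 607.6 Mb, matched 4B from 22.9 to 1.10 Mb. In 12 of the 25 windows the score exceeded the highest score that any 4A window reached on another group, 189. Around the emptiest part, 3 windows between 178 and 435 Mb matched 2A or 3A instead. With the presence of a peak in place of the bases covered, 9 of 47 windows matched 4B or 4D reversed and 0 forward, so the count depended on how regions were described. With wide peaks alone it was 9 of 25 windows, again with 0 forward. With windows of 500 regions it was 19 of 49 with 4 forward, and with lower assumed correlations 23 of 47 with 3 forward.

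The series ended at 607.6 Mb, which is 81.6% of the length of 4A. That point was set as the end of the last window best matched to 4B or 4D reversed. By this definition, none of the 18 windows whose alignment reached past it could have such a match, and none matched 4B or 4D forward best. Their best matches lay on 9 different chromosomes with scores of 149 to 189. In the 29 windows before that point the best score on another group was 121 to 165, and 11 of the 18 later windows passed this maximum, on 3A, 3B and 7A among others. The last 2 windows, from 709.9 Mb to the tip, matched the left tip of 7A reversed, at 150.2 and 149, which did not pass it. The stretch beyond 607.6 Mb held 37.2% of the merged regions of 4A, 3708 of 9976, on the last 18.4% of its length. The same last share of length held 3237 of 8930 regions on 4B and 2956 of 8040 on 4D, so this concentration is not particular to 4A.

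4B and 4D matched each other forward. Of 42 windows of 4B, 25 had their best match on 4D forward, and of 38 windows of 4D, 20 had theirs on 4B forward. 4A reversed was the best match in 3 and 9 further windows, and 4A forward in none. Near their right ends both left this series for the same place on 5A. On 4B, 5 windows from 613.2 to 660.1 Mb matched 5A forward from 663.2 to 701.1 Mb, at scores of 159 to 229. On 4D, 6 windows from 480.5 to 509.6 Mb matched 5A forward from 660.2 to 700.9 Mb, at 181 to 227. The matched stretch ended 8.61 to 8.83 Mb before the last peak of 5A. The stretches were alike in part. Regions with a bud peak alone made up 16.4% on 4B (95% Wilson interval 14.6 to 18.3, counting error over regions only, as for all such intervals here) and 16.9% on 5A (15.1 to 18.8), and root alone 9.72% and 10.4%. Over the whole last 20% of the length, bud alone made up 16.3% on 4B, 16.5% on 4D and 16.3% on 4A. Root alone made up 11.0%, 10.2% and 17.1% there. The likeness in bud-alone share is therefore not particular to the matched stretches. On 4D bud alone was 19.8% (17.8 to 21.8) and on its match on 5A 16.9% (15.1 to 18.8), and shoot apex alone was 7.80% (6.56 to 9.24) and 10.6% (9.17 to 12.2), with intervals that overlapped only slightly. Regions per Mb were 33.7 on 4B, 52.8 on 4D and 39.9 or 39.04 on 5A, depending on which of the partners set the limits.

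**Figure D3:**
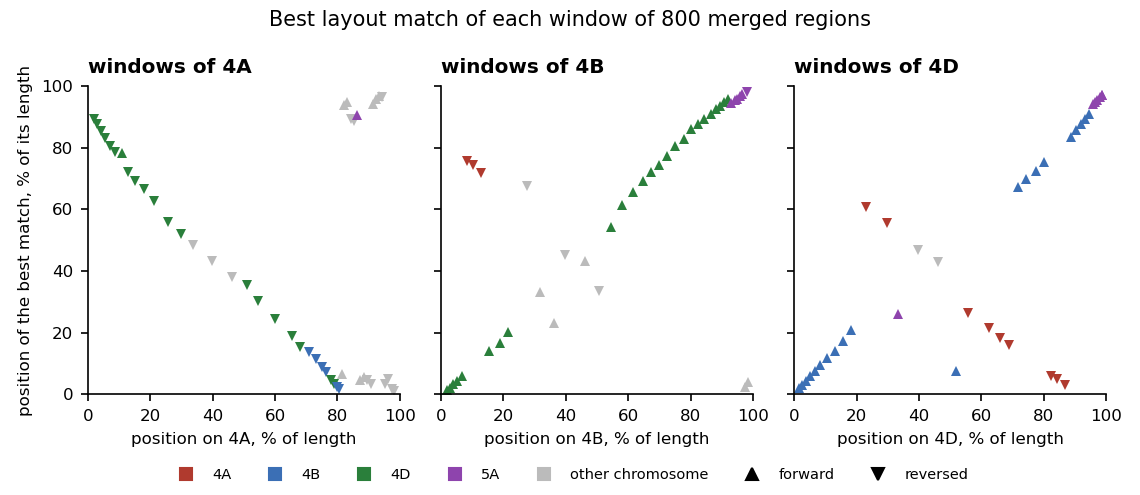
Each triangle is 1 window of 800 merged regions, placed by its position (horizontal axis, percent of chromosome length) and by the position of its best match (vertical axis, percent of the length of the matched chromosome). Up and down triangles mark forward and reversed matches and colours the matched chromosome. Windows of 4A descend along 4D and 4B up to 81.6% of its length and scatter beyond, while 4B and 4D ascend along each other and then match 5A, which 4D does up to its right tip and 4B up to its last 3 windows.

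Merged regions were then sorted by which tissues had a peak there. Over group 4, 44.7% of the 26946 regions belonged to a single tissue (12056 regions) and 20.1% to all 4 (5418 regions). Those of all 4 tissues were the widest, with a median of 1328 bp against 375 bp for single-tissue regions, and covered 40.4% of the bases of all regions. The 3 chromosomes differed little in these totals. Regions of a single tissue made up 45.3% of 4A (44.3 to 46.3), 44.9% of 4B (43.9 to 46.0) and 43.9% of 4D (42.8 to 45.0), and regions of all 4 tissues 19.8%, 19.8% and 20.8%. All 6 shares lay within the range of the other 18 chromosomes, 43.6% to 47.4% and 17.7% to 21.5%.

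They differed in which single tissue it was. Regions of leaf alone were 12.3% of 4B (11.6 to 12.98), against 10.7% of 4A (10.1 to 11.3) and 10.01% of 4D (9.38 to 10.7). The share on 4B was the highest of the 21 chromosomes, the 18 outside group 4 running from 9.11% to 10.7%. Regions of root alone were 12.97% of 4A (12.3 to 13.6), 9.78% of 4B (9.18 to 10.4) and 10.5% of 4D (9.87 to 11.2), which placed 4A at rank 3 and 4B at rank 20 of 21. Regions of shoot apex alone were 8.02% of 4A, rank 20 of 21, 8.94% of 4B and 9.27% of 4D. Regions of bud alone were 13.6%, 13.9% and 14.1%.

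The root regions of 4A were most frequent towards its right end. Root alone made up 9.49% of the regions in the first 20% of 4A and 17.1% in the last 20%, rank 2 of the 42 ends, where the 36 ends outside group 4 ran from 9.001% to 22.9% with a median of 13.3%. In the last 20% of 4B it was 11.0% and in that of 4D 10.2%. Split at 607.6 Mb, 4A had 10.3% root-alone regions before (9.59 to 11.1) and 17.4% beyond (16.3 to 18.7), and leaf alone fell from 12.5% to 7.61%. Root peaks were 0.851 times as many as leaf peaks before that point, with 3335 and 3917, and 1.23 times as many beyond it, with 2124 and 1722. On 4B the same split by share of length gave 9.12% and 10.9% root-alone regions, and on 4D 10.7% and 10.3%. High shares on 4A were not confined to the stretch beyond 607.6 Mb. In 20 parts of 4A, root alone was 16.4% from 60% to 65% of the length and 17.7% from 65% to 70%. It was 13.75% from 70% to 75% and 9.62% from 75% to 80%. The 4A window centred at 65.3% matched 4D around 18.9% of its length, and from 15% to 20% of 4D root alone was 17.8%. At the left ends of 7A and 7D, root alone made up 14.4% and 14.2% of the first 20%. These were ranks 11 and 14 of the 42 ends, near the median of 13.3%. Both chromosomes belong to the group from which part of the distal 4A long arm is known to derive. Whether that origin bears on the root share of 4A was not tested.

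Regions of bud alone had a raised share at all 6 tips. The 2 outermost 5% parts of a chromosome held 29.0% of them on 4A, 40.7% on 4B and 44.4% on 4D. The same parts held 20.4%, 27.7% and 30.3% of all regions, and most bud-alone regions lay elsewhere. Bud alone made up 20.1% of the regions in the first 5% of 4A (17.8 to 22.7) and 18.5% in the last 5% (16.2 to 20.9). It made up 20.1% and 20.7% on 4B, and 20.3% and 20.8% on 4D. These 6 values lay below or near the median of the 36 other ends, 21.4%, so a high share at the tip is shared by the other groups. From 5% to 10% of the length the share was 12.1% on 4A, 12.1% on 4B and 8.59% on 4D, and from 90% to 95% it was 16.6%, 12.5% and 11.8%. Some inner parts came near the tips or passed them: it was 21.9% from 45% to 50% of 4B, a part with 237 regions, and 18.8% from 80% to 85% of 4D.

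The matched stretches allow a stretch at a tip to be set beside its match elsewhere, although common descent of matched stretches was not shown by sequence. At the left tip of 4A, the first 800 regions had 20.8% bud-alone regions (18.1 to 23.7). The stretch that matched them on 4D, 39.1 Mb from its right end, had 11.6% (9.39 to 14.3), and that on 4B, 80.4 Mb from its right end, 12.6% (10.4 to 15.3). The first 800 regions of 4B had 23.2% (20.5 to 26.3). Their match on 4D, also at the left tip, had 22.9% (19.99 to 26.0), whereas their match on 4A, 136.9 Mb from the right end, had 14.0% (11.7 to 16.7). In both cases the stretch at a tip had the higher share and its inner counterpart the lower, with counting intervals that did not overlap. From 5% to 95% of the length bud alone was 12.1% on 4A, 11.4% on 4B and 11.2% on 4D. A lower share was thus usual for inner stretches, matched or not, so these cases cannot tell the match apart from position. Density did not follow the bud-alone share in the same way: regions per Mb were 27.6 at the left tip of 4A against 20.9 and 14.6 in its matches, but 32.6 at the left tip of 4B against 34.7 in its inner match on 4A. The local mean had been removed before the matching, so the level of a tissue over a whole stretch did not enter the match. The match of the left tip of 4B on 4A scored 165, against at most 152 on another group. The left tip of 4D matched 4A at 167, below the best score on another group, 173, and was left out. So were the right ends of 4A, 4B and 4D, where no match within group 4 passed the best score on another group.

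**Figure D4:**
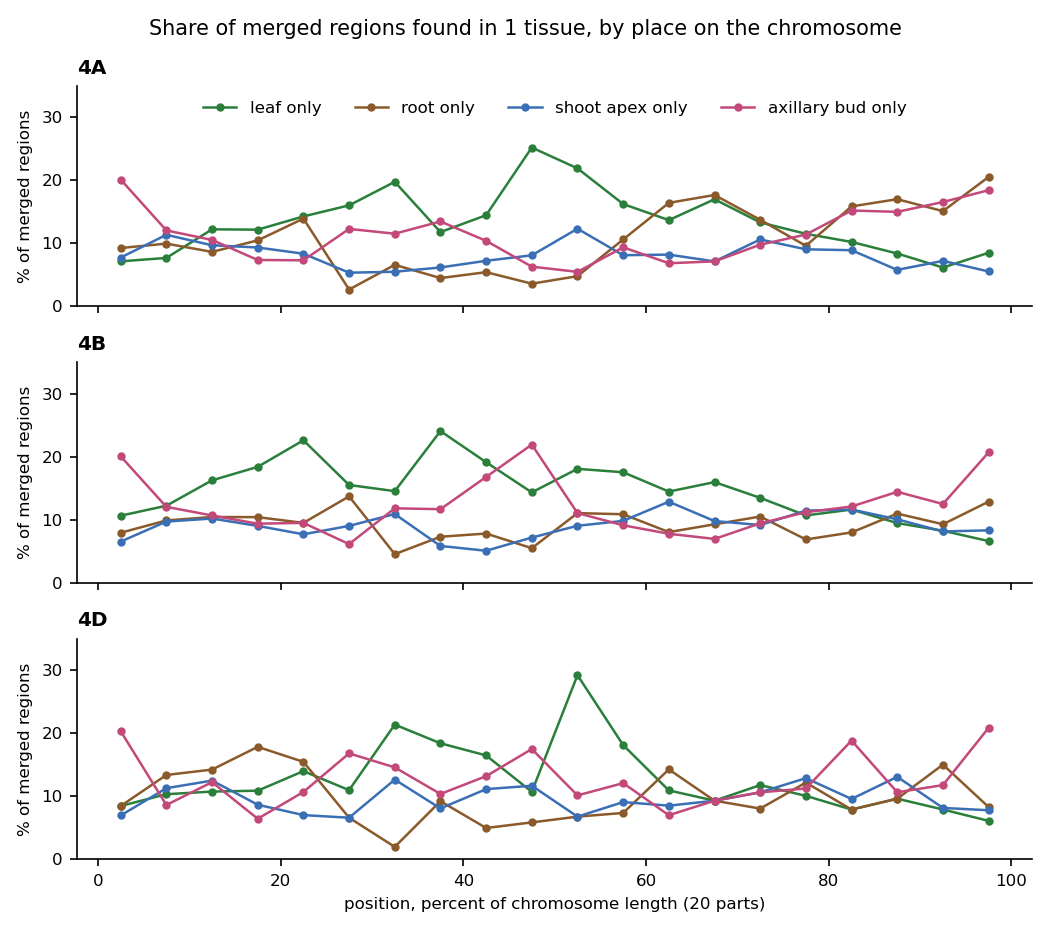
Share of merged regions with a peak in a single tissue (vertical axis, percent) in 20 parts of 4A, 4B and 4D (horizontal axis, percent of chromosome length), with 1 line for each tissue. Bud-alone regions reach 18.5% to 20.8% at all 6 tips, and root-alone regions reach 17.1% over the last 20% of 4A. Parts in the middle of the chromosomes hold down to 87 regions.

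The surplus of leaf and shortage of root on 4B also showed in whole lists. 4B held 4.29% of the leaf list, 7.53% more than the mean share of the other lists, the highest of the 21 chromosomes. It held 3.79% of the root list, which differed by −8.74% from the mean share of the others, rank 20 of 21. Leaf peaks outnumbered root peaks 1.24 to 1 in the first 20% of 4B, 1.29 to 1 in its middle 60% and 1.01 to 1 in its last 20%. The first of these ratios was the highest of 21, the 18 chromosomes outside group 4 running from 0.83 to 1.11, and the ratio in the middle had rank 2. The left end of 4A had rank 2 in its zone at 1.12, and the right end of 4A rank 19 at 0.84. Over the first 20% of 4B there were 1408 peaks in leaf, 1138 in root, 1388 in shoot apex and 1346 in bud. As shares of their lists, which differ in size, root differed there by −13.3% from the mean of the others and leaf by 10.5%. In the middle 60% there were 2092, 1628, 1912 and 1554 in that order, and the leaf share was 24.9% above the mean of the others. A high leaf share in the middle was not particular to 4B: it was 21.7% above on 4A and 14.8% above on 4D. Leaf peaks also outnumbered root peaks in the middle of the 18 chromosomes outside group 4, by 1.11 to 1.30 to 1. The single 1 Mb window of group 4 in which leaf stood furthest above the next tissue was on 4B, from 285000001 to 286000000, with 26 leaf peaks against 9 in root, 11 in shoot apex and 12 in bud.

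4A had the lowest median width in each list, level with 4B in shoot apex. Median widths were 475 bp in leaf and root, 525 bp in shoot apex and 536 bp in bud on 4A, 500, 500, 525 and 550 bp on 4B, and 525, 500, 550 and 575 bp on 4D. The quartiles of leaf peaks were 325 and 800 bp on 4A and 325 and 875 bp on 4D, so the difference in medians is small beside the spread among peaks. Peaks of at least 2 kb were 3.87% of the leaf peaks on 4A and 4.65% on 4D, and in shoot apex 4.72% and 6.14%. At the right tip of 4A the merged regions were narrow too: those in its last 5% had a median of 500 bp, against 607 bp in its first 5% and 600 and 638 bp in the last 5% of 4B and 4D.

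The widest region of all 4 tissues on 4A ran from 564143187 to 564156555 (13369 bp), at 75.8% of the length, and was a leaf region in the main: leaf peaks covered all of its 13369 bp, root peaks 3725, shoot apex peaks 6250 and bud peaks 1150. On 4B it ran from 658202547 to 658215237 (12691 bp), with 9025 bp under leaf, 6202 under root, 12375 under shoot apex and 12300 under bud peaks. On 4D it ran from 502747029 to 502757511 (10483 bp), with 7925, 7123, 7269 and 8158 bp. These last 2 regions sat at 97.7% and 98.6% of the length, and shared their width more evenly among the tissues.

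Of the regions of a single tissue, those of root reached the greatest width. On 4D a root region of 6100 bp ran from 459065644 to 459071743, on 4A one of 5125 bp from 609804466 to 609809590, just past the end of the matched series, and on 4B one of 3499 bp from 672955457 to 672958955, at 99.9% of the length. The widest shoot apex region was on 4D, from 353694426 to 353697850 (3425 bp), with 2350 bp on 4A and 1750 bp on 4B for the widest there. The widest leaf regions were close to each other in size, with 2750 bp on 4A, from 594212741, 2950 bp on 4B, from 6535723, and 2775 bp on 4D, from 443206091. The widest bud regions measured 2688 bp on 4A, from 744534054, next to the last peak of the chromosome, 1799 bp on 4B and 2130 bp on 4D.

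Runs of at least 4 neighbouring merged regions that all belonged to the same single tissue, called blocks here, numbered 153 on group 4. 4A held 67 of them, 4B 51 and 4D 35. Scaled to the number of regions, 4A had 6.72 blocks per 1000 regions, the most of the 21 chromosomes, where the 18 outside group 4 ran from 3.87 to 6.54. 4B had 5.71, near their median of 5.70, and 4D 4.35, rank 20. A block can hold several peaks of a single open domain, so blocks were counted and not tested.

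Root blocks differed most in number. There were 40 on 4A, 17 on 4B and 11 on 4D. Of the 40 on 4A, 27 lay in the last 20% of the length, 11 in the middle and 2 in the first 20%. The last 20% held 41.6% of all merged regions of 4A and 54.9% of those of root alone. The first 20% held 24.0% and 17.5%. On 4B, 13 of 17 root blocks lay in the last 20%, which held 37.6% of all its regions and 42.2% of those of root alone. On 4D it was 4 of 11, with 37.5% and 36.4%. Leaf blocks numbered 16, 17 and 11, with 8, 10 and 6 in the middle 60% and 8, 7 and 5 in the outer 20% at either end. These outer zones held 65.6%, 63.6% and 66.7% of all regions, and 52.9%, 52.7% and 55.5% of those of leaf alone. Bud blocks numbered 10, 13 and 8, and 28 of these 31 lay in the outer 20% of the length at either end, which held 65.3% of all regions of group 4 and 73.8% of those of bud alone. Shoot apex blocks were few, with 1, 4 and 5. Since blocks follow the local share of a tissue, these counts and the shares of single-tissue regions are not independent of each other.

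**Figure D5:**
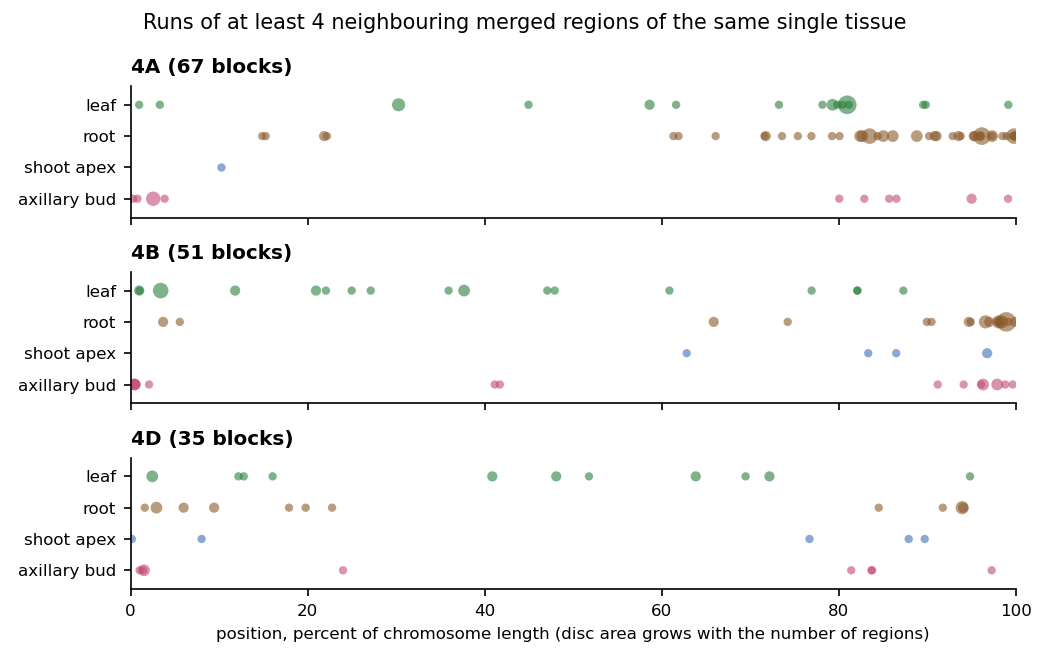
Each disc is 1 block of at least 4 neighbouring merged regions of the same single tissue, placed by position (horizontal axis, percent of chromosome length) and tissue (rows), with an area that grows with the number of regions. Of the 40 root blocks of 4A, 27 lie in its last 20%, which holds 41.6% of its regions and 54.9% of those of root alone. Of 31 bud blocks, 28 lie in the outer 20% at either end, which holds 65.3% of all regions and 73.8% of those of bud alone.

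The longest block was a run of 13 root regions on 4B, from 665981456 to 666388013 (407 kb), followed by 12 leaf regions on 4A within 29.7 kb, from 602619647 to 602649363, and 11 root regions on 4A over 298 kb, from 715711088 to 716008872. The leaf block of 4A is compact and lies shortly before the end of the matched series. The longest leaf blocks of 4B and 4D were compact as well, with 9 regions in 17.5 kb from 22841186 and 6 regions in 15.7 kb from 12435615. The longest bud block, 8 regions on 4A from 18409612 to 19517992, was spread over 1108 kb. The other longest bud blocks, 6 regions each, spanned 306 kb on 4B and 85.8 kb on 4D, and that of root on 4D, 7 regions, 235 kb. In shoot apex the longest blocks were of 4, 5 and 4 regions on 4A, 4B and 4D.

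In windows of 1 Mb, root stood furthest above the next tissue at the right tip of 4A, from 742000001 to 743000000, with 49 root peaks against 25 in leaf, 24 in shoot apex and 32 in bud. Shoot apex did so on 4D from 487000001 to 488000000, with 53 peaks against 29 in leaf, 28 in root and 31 in bud. Bud did so in the last window of 4D, from 509000001, with 101 peaks against 56, 49 and 68, which was also the window with most merged regions, 121. The fullest windows of 4A and 4B held 88 regions, from 738000001, and 81, from 660000001. At the other extreme, 36 of 745 windows of 4A, 20 of 674 of 4B and 20 of 510 of 4D had no region. The longest stretch without any peak measured 2.96 Mb on 4A, from 263898022 to 266862839, 3.08 Mb on 4B, from 266086600 to 269165092, and 2.46 Mb on 4D, from 235518951 to 237981341.

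Group 4 as a whole was set against the other 6 groups in 78 measures, with an exact two-sided permutation test of which of the 7 groups carries the label. The smallest p this test allows is 0.143, so none could pass 0.05, and adjusted by the Benjamini-Hochberg method none was below 0.768. Group 4 stood furthest from the other groups in 14 of the 78, a little over an equal share among 7 groups. These were the 8 forward r values of 4A with 4B and 4D, the leaf and root shares of 4B, the shoot apex share of 4A, the median widths of leaf peaks on 4B and of bud peaks on 4D, and the single-tissue share of 4D. The leaf share of 4B was 7.53% above the other lists against −4.10% to 1.39% for the other B chromosomes. The shoot apex share of 4A was −3.26% against 0.387% to 4.14% for the other A chromosomes.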

How the data were processed

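ATAC-seq libraries, 2 for each of 4 tissues, are behind the lists. The authors deposited 1 peak list per tissue, whose values are other than a level: a start and an end in bp, with no height, score or p-value. Trimmomatic 0.36, Bowtie2, MACS2 and bedtools are named, without their roles, per the submitters' processing notes. Not given in the sources used here are the other versions, the build, the threshold for a peak and how the libraries of a tissue were combined. A peak caller finds more peaks in deeper libraries, so list sizes were not compared as biology.

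Starts were read as counted from 0 and are printed counted from 1. The lists held no repeated and no overlapping peaks. Peaks sharing at least 1 bp were merged, and regions classed by the tissues present. Intervals of shares are 95% Wilson intervals for counting error alone, and no chromosome is a replicate. The 7 homoeologous groups were compared by an exact two-sided permutation of the group label. Members, lists and measures were chosen with earlier results of these data known. The regions, blocks, windows and empty stretches named by position follow a set rule: per chromosome the widest region of all 4 tissues, the widest region and longest block of each tissue, the fullest 1 Mb window and the longest empty stretch, and per tissue the 1 Mb window furthest above the next tissue.

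The layout matching, added after the data had been seen, scored pairs of regions by 3 contrasts between tissues and the summed level of log2(1 + bp/100), each less its mean over the neighbouring regions, as the log-odds of 2 normal variables correlated at 0.6 (contrasts) or 0.7 (level), with a shift of 0.3 and a gap penalty of 1 (local alignment, windows of 800 regions, steps of 200 on group 4 and 800 elsewhere). It was not the first score tried. Alignments weighted by width, under which stretches of 4A had already been seen to match 4B and 4D reversed, also matched the middles of unrelated A chromosomes in both directions, and scores learned from aligned homoeologues placed few windows. Of many settings of the score kept, one was taken that was among the best at placing 2A, 3D and 5A on their homoeologues forward, and its 4 features were later replaced by fixed contrasts. Merging, blocks and matching were tested on simulated data with known answers. Python 3.11.15, NumPy 2.4.6, pandas 2.3.3, SciPy 1.17.1, Numba 0.67.0 and Matplotlib 3.10.9 were used. Sequences are not shown, since no genome on the build of the peaks was used here.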

Additional observations from a re-analysis of the deposited data

Results flagged for a closer look

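The forward likeness of the 4A and 4D density profiles stood far below that of the other 6 A with D pairs in all 4 lists, with r = 0.65 in leaf, 0.74 in root, 0.68 in shoot apex and 0.76 in axillary bud. In each list the gap to the next group took up more of the range of the 7 groups than Dixon's 95% critical value allows. The other 6 groups ran from 0.84 to 0.92 in leaf, 0.86 to 0.94 in root, 0.88 to 0.92 in shoot apex and 0.87 to 0.95 in bud. The 4 lists share the chromosomes, so these are not 4 separate signs.

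The median width of bud peaks on 4D, 575 bp, was set apart in the same way, since it was 550 bp on each of the other 6 D chromosomes. In the bud list 82.1% of widths are whole multiples of 25 bp, so the gap is a single step. The units here are homoeologous groups, not samples. Chance alone would set some group apart in about 1 in 20 measures. Of the 78 measures examined, these 5 were set apart with group 4 at the extreme. Other groups were set apart by the same rule in further measures. Group 1 was so in the D over B density ratio of each list, and in the A over B ratio of leaf and shoot apex. Groups 6 and 7 were so in other measures. Being set apart is therefore not particular to group 4.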

How the results depend on the processing

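No paired analysis was possible because a list holds positions alone, without values of its 2 libraries, and so no replicate was left out either. Density ratios, as mean log2 over the 4 lists, were 0.28 for 4D over 4A and 0.28 for 4D over 4B. They became 0.377 and 0.345 with wide peaks only, 0.378 and 0.339 with bases covered per Mb, and 0.0084 and −0.0599 per protein-coding gene. 4A over 4B, at 0.0071, was −0.0320 with wide peaks only, −0.0391 with bases covered and −0.0683 per gene, so it has no settled direction. Reversed minus forward r averaged −0.21 for 4A with 4B, −0.17 for 4A with 4D and −0.18 for 4B with 4D. It was −0.30, −0.26 and −0.41 with Spearman's rho, −0.54, −0.37 and −0.71 without the outer 10% at both ends, and 0.0239, −0.137 and −0.0272 with each side of the emptiest 50 Mb scaled apart. For 4A with 4B and with 4D it was −0.11 and −0.0324 after the last 10% of 4A was cut, 0.113 and 0.103 after the last 20%, and 0.0294 and 0.0393 with the cut at the end of the matched series, an alternative added after seeing the data. The cause was not tested.

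The single-tissue share of group 4, 44.7%, was 45.7% with lists cut to equal size, 39.8% with gaps up to 500 bp counted as shared and 53.8% if a tissue needed 50% of the region covered. The all-tissue share, 20.1%, was 17.4% with wide peaks only and, under the latter 2 rules, 23.3% and 7.51%. The distal share of 4A, 65.1%, was 36.6% in the outer 10%. The median width of 4D exceeded that of 4A by 34.8 bp, or by 47.8 bp in cut lists, and the mean by 51.3 bp. The root list share of 4B, −8.74% against the others, was −5.70% without the outer 20%. Blocks numbered 153, but 73 with wide peaks only, 27 of at least 6 regions and 96 with gaps shared. The surplus of root-alone regions in the last 20% of 4A over its first 20%, 7.61 points, was 9.29 with wide peaks only, and that of bud-alone regions at the tips over the rest, 8.50 points, 11.0 under the 50% rule. The 53.2% of 4A windows matched to 4B or 4D reversed became 19.1% with presence of a peak only. Of 122 alternative values for 28 results, 53 stayed near the main value, 60 moved further and 9 changed sign. Near meant within the spread or interval of the result. For counts of blocks and the share of matched windows it meant within a set factor of the main value, a looser rule. By it, the 36.0% of matched windows with wide peaks only and the 38.8% with windows of 500 regions still counted as near 53.2%.

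The depth behind the lists is unknown, so a missing peak does not show closed chromatin. Without a genome on the build of the peaks, no region was tied to a gene, and the known rearrangements of 4A were not located by sequence.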
